A study of Sus scrofa with 6 samples.

Results

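FMOD, ASPN, BGN and DCN, genes of the small leucine-rich proteoglycan (SLRP) family, were followed across the cells of a porcine reprogramming study. The members were chosen by gene symbol, and each matched 1 row, so the set holds 4 of the 25322 gene IDs of the table. The cells came from the Small Xiang Pig (Sus scrofa) and RNA was sequenced from 6 libraries in 3 groups of 2. P10 denotes piPSCs, the pluripotent stem cells induced from pig cells, taken at passage 10 and labelled Rex1 negative. P5 denotes piPSCs taken at passage 5 and labelled Rex1 positive. PEF denotes the progenitor fibroblasts, also at passage 5. Induced pluripotency is the state of body cells that reprogramming has made similar to cells of the early embryo, and Rex1 is a zinc finger protein used to mark undifferentiated cells. The reprogramming factors, the medium, any feeder cells and the number of clones or animals behind a group were not stated by the sources.

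SLRPs are secreted proteins with a core of leucine-rich repeats, most of them carrying sulfated sugar chains. In connective tissue they coat collagen fibrils and regulate fibril diameter and spacing, and several bind growth factors of the TGF-beta family. Decorin (DCN), biglycan (BGN) and asporin (ASPN) form class I of the family together with ECM2. Fibromodulin (FMOD) belongs to class II with lumican (LUM), PRELP, keratocan (KERA) and osteomodulin (OMD). Fibroblasts are a main source of these proteins, and recombinant human fibromodulin has itself been used in work on reprogramming human fibroblasts.

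The values were FPKM, fragments scaled to the length of the gene and the size of the library, and the authors deposited 1 column per group. Every value below is thus a single number of the authors for a group. It has no SD, and no difference could be checked against replicates or given a p-value. A gene was called higher or lower where log2(FPKM + 1) differed by at least 1 between groups, a 2-fold difference on that scale, which understates the difference of low genes. A gene entered the comparisons if its FPKM reached 1 in any group, which held for 13998 IDs. FMOD, BGN and DCN reached that FPKM in every group, and ASPN reached it in P10 and PEF but not in P5. The deposited columns summed to 826083 FPKM in P10, 628992 in P5 and 821130 in PEF, of which genes of the mitochondrial genome took 31.1%, 19.1% and 15.7%. Because these are bulk samples, fewer cells of a type and less RNA per cell cannot be told apart.

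The labelled cell types were first set against marker genes. Of all compared genes, 19.6% were called lower than PEF in P5 and 19.3% in P10. All 8 fibroblast markers with a row, of 10 listed, were lower in both piPSC groups than in PEF. Of these FAP passed the filter only through PEF. Their summed FPKM was 996 in P10, 701 in P5 and 8330 in PEF, and VIM alone made up 969, 589 and 5403 of it. Without VIM the other 7 markers summed to 26.9 in P10, 112.7 in P5 and 2927 in PEF, so the order of the piPSC groups turned. COL3A1 alone made up 3.11 of that in P10, 87.9 in P5 and 1016 in PEF, so this order rests largely on that gene. The 4 pluripotent cell markers with a row, LIN28A, DNMT3B, EPCAM and CDH1, summed to 243, 548 and 2.22 FPKM in P10, P5 and PEF. Without LIN28A, the largest of them, the sum was 38.4 in P10, 249.6 in P5 and 1.90 in PEF. POU5F1, SOX2, NANOG and ZFP42, the gene of Rex1, had no matched ID, so the Rex1 state was not checked here.

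All 4 members were far lower in both piPSC groups than in the fibroblasts, where FMOD, BGN and ASPN were among the most abundant transcripts. FMOD, which carries keratan sulfate chains and sulfated tyrosines and binds type I collagen (ENSSSCG00000015270, chromosome 9, 70356563 to 70367608, build susScr3), had an FPKM of 4.26 in P10, 2.58 in P5 and 1699 in PEF. BGN, which usually carries a pair of chondroitin or dermatan sulfate chains and can act as a ligand of Toll-like receptors when released (ENSSSCG00000012766, chromosome X, 141845598 to 141858874), was at 51.4 in P10, 14.0 in P5 and 1495 in PEF. BGN was the higher of the pair in both piPSC groups, whereas in PEF FMOD was 1.14-fold higher than BGN.

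ASPN, named for its aspartate-rich amino end and known as an inhibitor of TGF-beta signalling in cartilage (ENSSSCG00000008072, chromosome 3, 43260711 to 43602320), was at 1.06 FPKM in P10, 0.845 in P5 and 598 in PEF. Its locus is shared by 7 IDs, so the division of reads between it and its neighbours is uncertain. DCN, which carries 1 chondroitin or dermatan sulfate chain, binds collagen and TGF-beta and restrains growth factor receptors (ENSSSCG00000000915, chromosome 5, 96109665 to 96143719), was at 1.12 in P10, 4.26 in P5 and 49.98 in PEF. DCN was thus the lowest of the members in PEF, by 11.96-fold against ASPN, and the only one of the members whose P10 value lay below its P5 value.

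**Figure D1:**
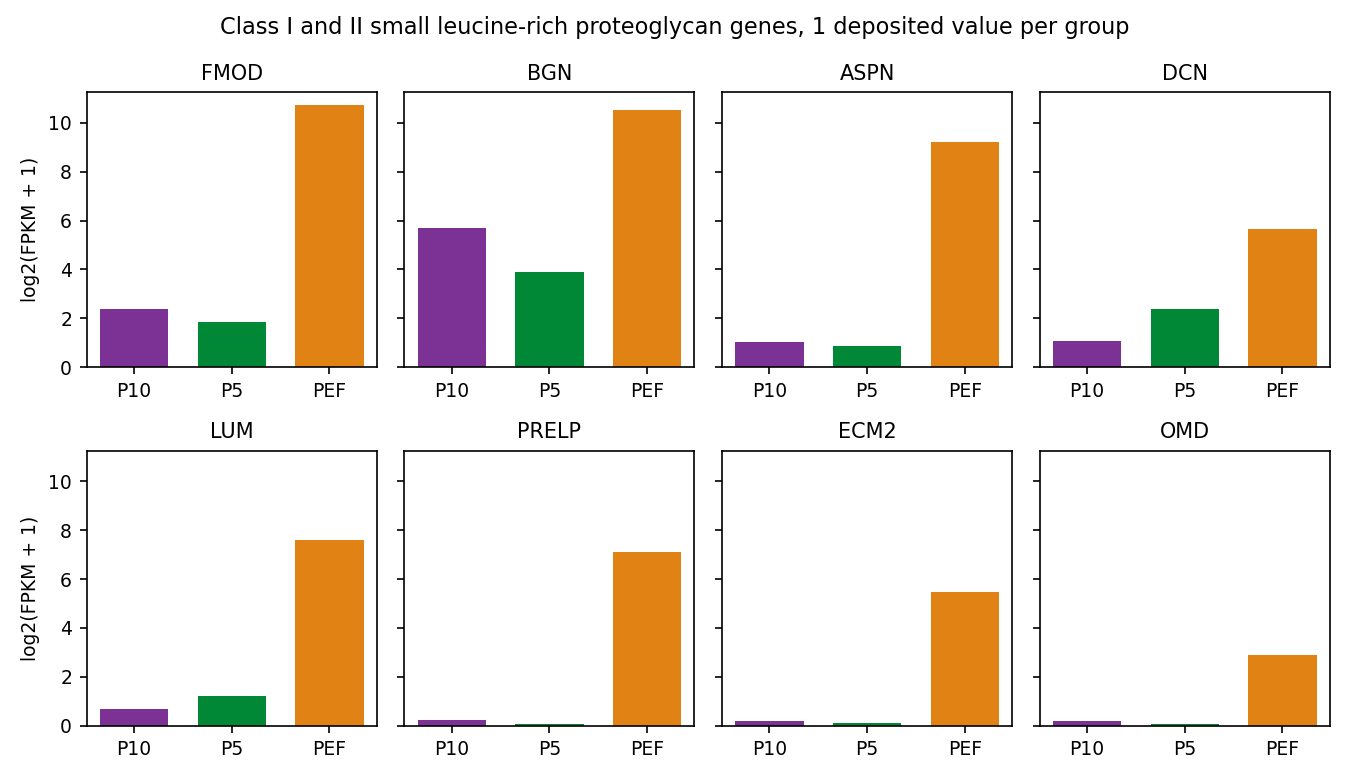
The bars give log2(FPKM + 1) of 8 class I and II SLRP genes in P10, P5 and PEF, with 1 deposited value per group and no error. Each gene is highest in PEF, and among the piPSC bars BGN stands out, at 51.4 FPKM in P10 and 14.0 FPKM in P5.

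The order of levels by FPKM, which is scaled to gene length, differed between the groups. It was BGN, FMOD, DCN and ASPN in P10, with DCN and ASPN only 1.05-fold apart. It was BGN, DCN, FMOD and ASPN in P5, and FMOD, BGN, ASPN and DCN in PEF. Without a spread between libraries, close neighbours in these orders cannot be ranked with confidence.

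Among the 13998 compared genes, ranked from the highest FPKM within each group, the members stood in the middle or lower part in the piPSCs, other than BGN in P10, and near the top in PEF. FMOD ranked 9137 in P10, 10612 in P5 and 59 in PEF. ASPN ranked 12480 in P10, 12784 in P5 and 154 in PEF. In the piPSCs both thus lay below most of the compared genes. BGN ranked 1399 in P10, 4920 in P5 and 69 in PEF, so in P10 it still lay within the top 9.99% of compared genes. DCN ranked 12381 in P10, 9194 in P5 and 1849 in PEF. These ranks do not change when a whole column is multiplied by a constant.

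The 4 members summed to 57.9 FPKM in P10, 21.7 in P5 and 3842 in PEF, or 0.00701%, 0.00345% and 0.468% of all FPKM in the column. The makeup of that sum differed. BGN took 88.9% of it in P10, 64.6% in P5 and 38.9% in PEF. FMOD took 7.35% in P10, 11.9% in P5 and 44.2% in PEF. The share of ASPN was 1.84% in P10, 3.90% in P5 and 15.6% in PEF, so both were a smaller part of the sum in the piPSCs. DCN stood apart in P5, at 19.6% of the sum, against 1.94% in P10 and 1.30% in PEF.

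**Figure D2:**
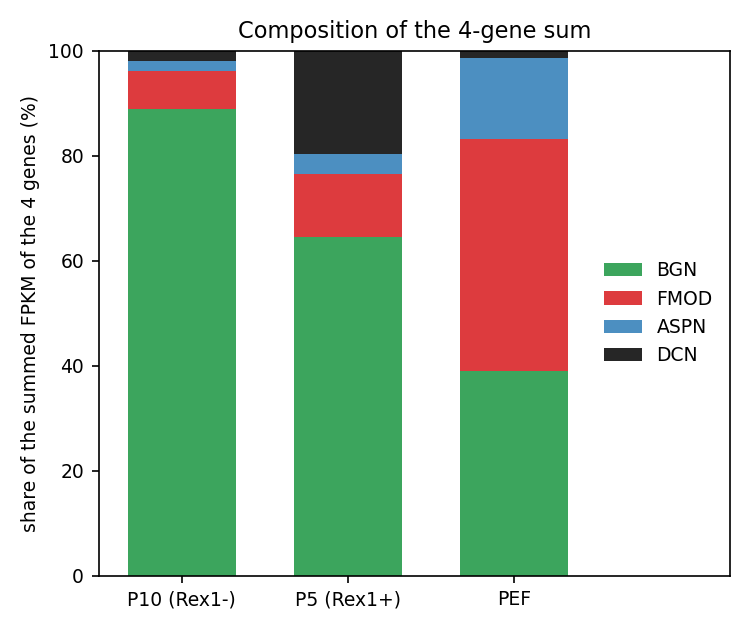
Stacked bars give the percent of the summed FPKM of BGN, FMOD, ASPN and DCN that each gene took in P10, P5 and PEF. BGN takes 88.9% of the sum in P10, while FMOD takes the largest share in PEF, 44.2%.

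P5 was first compared with PEF, that is, early Rex1 positive piPSCs with their fibroblasts of origin. All 4 members were called lower in P5, against 19.6% of all compared genes called lower and 21.4% called higher. The log2 difference was -8.89 for FMOD, -8.34 for ASPN, -6.64 for BGN and -3.28 for DCN, where the median of all compared genes was 0.09. As plain FPKM ratios, FMOD was 658-fold, ASPN 708-fold, BGN 107-fold and DCN 11.7-fold lower in P5. From the lowest difference upward among the 13998 genes, FMOD stood at rank 2, ASPN at 12, BGN at 45 and DCN at 422. The members were chosen with earlier results of these data known, so their count is a description.

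P10, the later and Rex1 negative state, was then compared with PEF. Again all 4 members were called lower, against 19.3% of compared genes called lower and 19.1% called higher. The log2 difference was -8.34 for FMOD, -8.18 for ASPN, -4.83 for BGN and -4.59 for DCN, where the median of all compared genes was 0.06. FMOD was 399-fold, ASPN 562-fold, BGN 29.1-fold and DCN 44.5-fold lower in P10 as plain FPKM ratios. FMOD stood at rank 6 from the lowest difference, ASPN at 7, BGN at 155 and DCN at 182. The PEF column serves in both comparisons, which are therefore not independent.

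A direct comparison of P10 with P5 separated the class I members. BGN was called higher, at 51.4 FPKM in P10 and 14.0 in P5, a log2 difference of 1.81 and a 3.68-fold ratio. DCN was called lower, at 1.12 FPKM in P10 and 4.26 in P5, a log2 difference of -1.31 and a 3.79-fold ratio. Of all compared genes 7.57% were called higher and 8.48% lower in P10. BGN stood at rank 230 from the highest difference and DCN at 619 from the lowest.

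FMOD and ASPN were not called between the piPSC groups. FMOD had a log2 difference of 0.55, with 4.26 FPKM in P10 and 2.58 in P5, and ASPN one of 0.16, with 1.06 FPKM in P10 and 0.845 in P5. The DCN call rests on low values: with a pseudocount of 5 its difference was -0.60 and no longer a call. Passage and Rex1 state differ together between these groups and cannot be told apart.

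**Figure D3:**
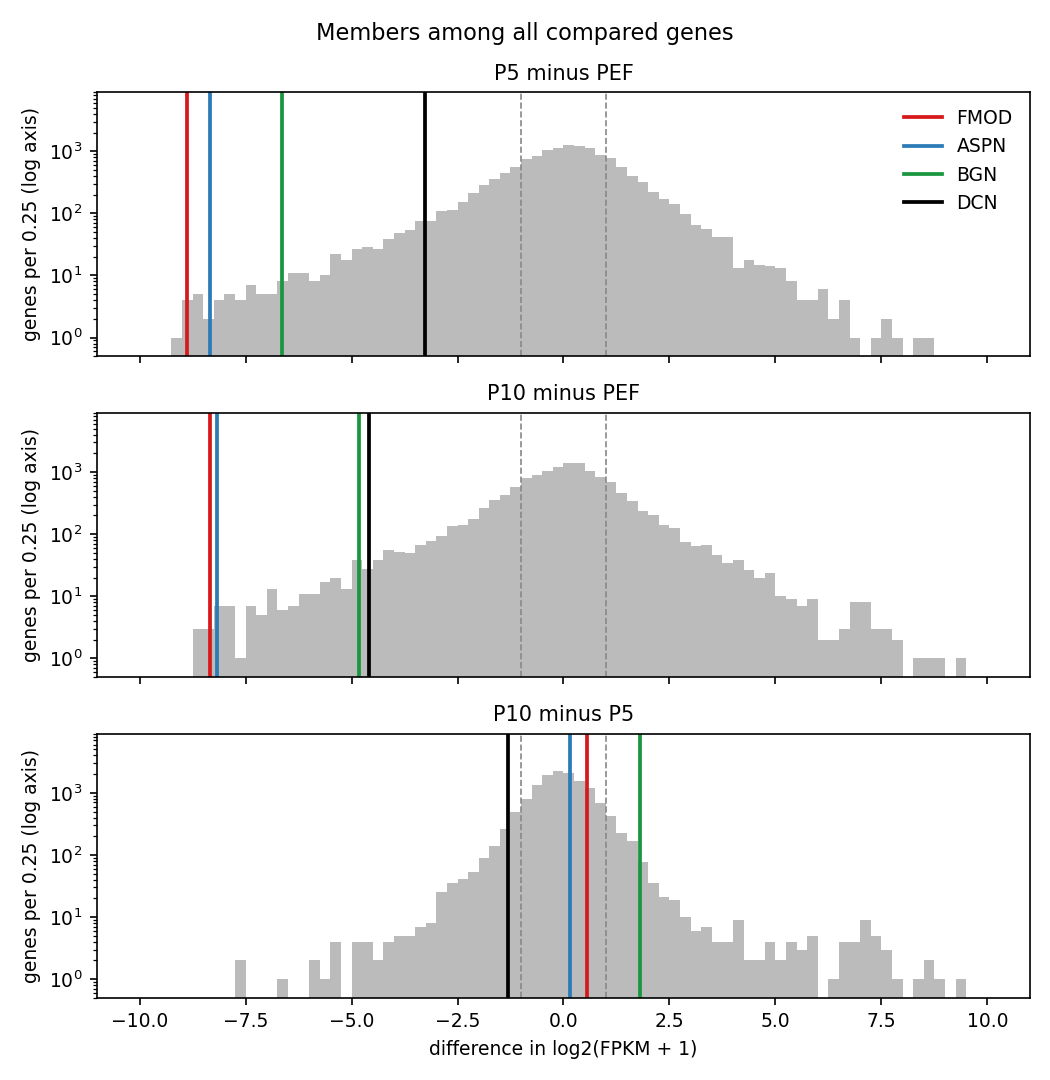
Grey histograms show the difference in log2(FPKM + 1) of all 13998 compared genes in P5 minus PEF, P10 minus PEF and P10 minus P5, with gene counts on a log axis. Coloured lines mark FMOD, ASPN, BGN and DCN, and dashed lines mark the call at a difference of 1. The members lie in the far left tail against PEF, FMOD at -8.89 and -8.34, while in P10 minus P5 BGN lies at 1.81 and DCN at -1.31.

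Ratios between members show the same unevenness without reference to the column totals. FMOD over ASPN was 4.0 in P10, 3.06 in P5 and 2.84 in PEF, the least varied ratio of the 6 pairs. BGN over FMOD was 12.1 in P10, 5.42 in P5 and 0.880 in PEF. BGN over DCN was 45.8 in P10, 3.29 in P5 and 29.9 in PEF, so the P5 ratio was the low one.

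The level that remained in the piPSCs was set beside that of fibroblast markers. As a percent of its PEF value, FMOD was at 0.251% in P10 and 0.152% in P5. ASPN was at 0.178% in P10 and 0.141% in P5. These 2 genes kept under 1% of their PEF level in both piPSC groups. BGN was at 3.44% in P10 and 0.936% in P5. For DCN it was 2.25% in P10 and 8.52% in P5, the highest of the members in P5.

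The 8 fibroblast markers spanned 0.0437% to 17.9% of PEF in P10, with a median of 1.61%, and 0.460% to 10.9% in P5, with a median of 3.16%. FAP, a fibroblast activation protease, had the lowest percent in P10, and VIM, the mesenchymal intermediate filament vimentin, the highest in both groups. COL3A1, a fibrillar collagen chain, was at 0.306% in P10 and 8.65% in P5. PDGFRB, a growth factor receptor of mesenchymal cells, was at 6.72% in P10 and 2.18% in P5. Like DCN, COL3A1 was lower in P10 than in P5. PDGFRB, like BGN, had the higher percent in P10, but unlike BGN it was not called between P10 and P5, at a log2 difference of 0.755. VIM, FAP and PDGFRB were named after their values were seen. The fibroblast markers moved with the members, and their part in the result was not tested.

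**Figure D4:**
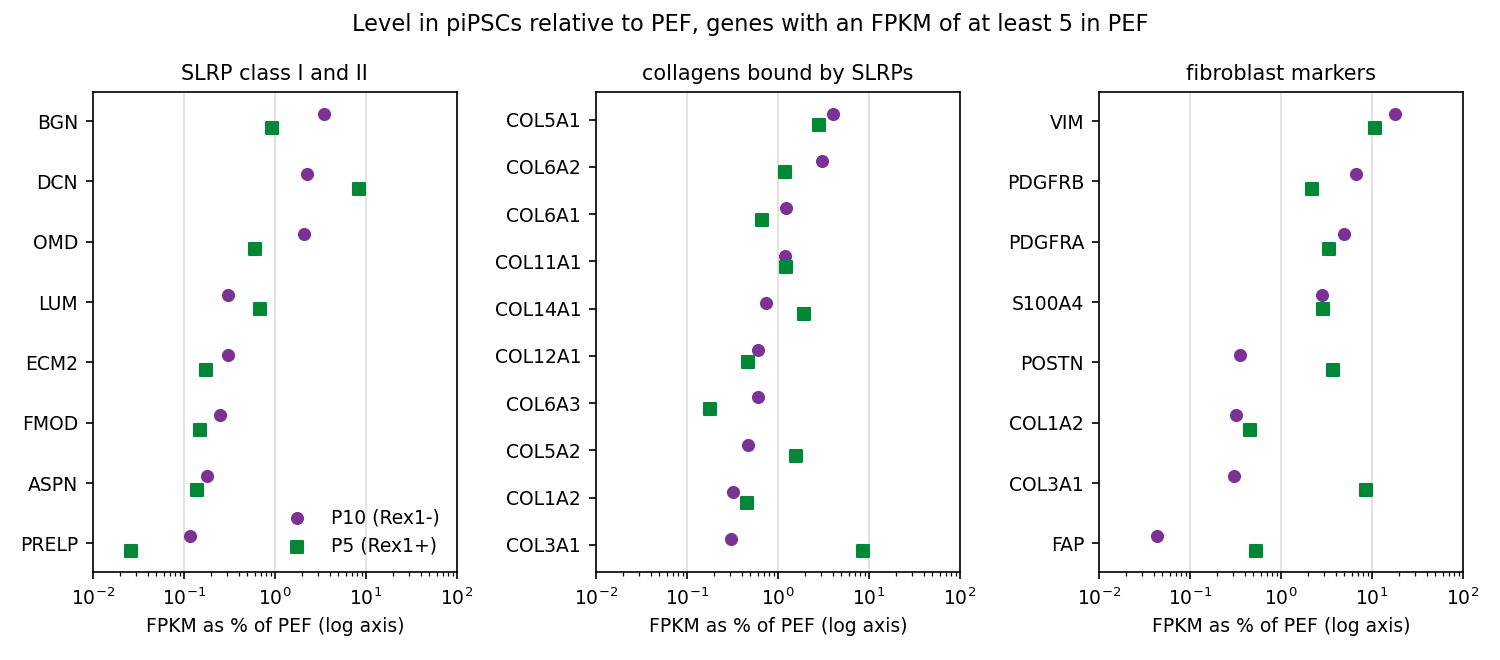
Points give the FPKM of a gene in P10 (circles) and P5 (squares) as a percent of its FPKM in PEF on a log axis, for class I and II SLRPs, collagens bound by SLRPs and fibroblast markers with an FPKM of at least 5 in PEF. FMOD and ASPN lie between 0.141% and 0.251%, BGN is further right in P10 than in P5, and DCN and COL3A1 are further right in P5.

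The rest of the SLRP family gave the setting. Of the 9 class I and II genes listed all had a row, and KERA, a corneal keratan sulfate proteoglycan, was the one that reached an FPKM of 1 in no group (0 in P10 and P5 and 0.149 in PEF). LUM, a collagen-binding keratan sulfate proteoglycan of cornea and skin, was at 0.588 FPKM in P10, 1.31 in P5 and 193 in PEF. PRELP, a class II protein rich in proline and arginine at its amino end, was at 0.161 in P10, 0.0365 in P5 and 138 in PEF. ECM2 was at 0.132, 0.0752 and 43.3, and OMD, a keratan sulfate proteoglycan of bone, at 0.136, 0.0386 and 6.42 in P10, P5 and PEF.

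These 4 relatives were lower in both piPSC groups. PRELP, ECM2 and OMD passed the filter only through PEF, and at their PEF levels they had to be called lower, so no count over the family is used as support. LUM differed by -0.54 between P10 and P5 and was not called. PRELP, ECM2 and OMD were under an FPKM of 1 in both piPSC groups.

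Of the 9 listed genes of classes III to V, 8 had a row and 4 were compared. TSKU (tsukushi), a secreted regulator of developmental signals, was the most abundant of them in the piPSCs, at 3.29 FPKM in P10, 10.8 in P5 and 18.4 in PEF. Its log2 difference was -0.72 in P5 minus PEF, -2.18 in P10 minus PEF and -1.46 in P10 minus P5. PODNL1 was at 0.275 in P10, 0.103 in P5 and 6.41 in PEF. CHAD (chondroadherin), a cartilage matrix protein at a locus shared by 2 IDs, was at 1.78 in P10, 0.954 in P5 and 1.87 in PEF and was called in none of the comparisons. PODN (podocan) was at 0.261, 0.338 and 1.15 in P10, P5 and PEF, also with no call. EPYC was listed at 0 in every group, and OPTC, NYX and CHADL stayed under an FPKM of 1, with highest values of 0.0245, 0.381 and 0.180. OGN is not analysed here.

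Several SLRP genes are neighbours in the genome, which allowed the members to be set beside the genes around them. At the ASPN locus 7 IDs share 1 span, and 5 of them were called lower in both piPSC groups than in PEF: ASPN, ECM2, OMD and 2 IDs without a symbol. The more abundant of those, ENSSSCG00000008074, was at 0.200 FPKM in P10, 0.432 in P5 and 151 in PEF. The other, ENSSSCG00000028244, was at 0.130 in P10, 0.0577 in P5 and 32.4 in PEF. ECM2, OMD and these 2 IDs were under an FPKM of 1 in both piPSC groups and entered the comparison only through PEF. At their PEF levels they had to be called lower, so the count of 5 is a description. The remaining IDs of the span were not called in any comparison. CENPP, which encodes a centromere protein, was at 17.7 in P10, 25.3 in P5 and 14.7 in PEF, and IPPK, an inositol phosphate kinase, at 2.30, 2.32 and 2.78.

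In the RefSeq gene table of another pig assembly, Sscrofa11.1, OGN, OMD, ASPN and ECM2 follow each other in that order and all 4 lie within the span of CENPP. Reads on an intron of CENPP and reads on an SLRP exon can therefore fall at the same place, and whether strand was used in counting was not stated. The part of this overlap in the values was not tested. Outside the span the nearest ID, ENSSSCG00000030143, which has no symbol and ends 1309 bases before it, was at 0.138 FPKM in P10, 0.0563 in P5 and 19.0 in PEF. It was called lower in both piPSC groups, and it too passed the filter only through PEF. At its PEF level it had to be called lower, so where lower genes end cannot be read from its call. NOL8, a nucleolar protein gene 16641 bases before it, was at 16.9 FPKM in P10, 16.8 in P5 and 22.1 in PEF and was not called. BICD2, a dynein adaptor gene 102879 bases after it, was at 3.08 in P10, 3.61 in P5 and 7.22 in PEF, and was called lower in P10 at a log2 difference of -1.01.

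**Figure D5:**
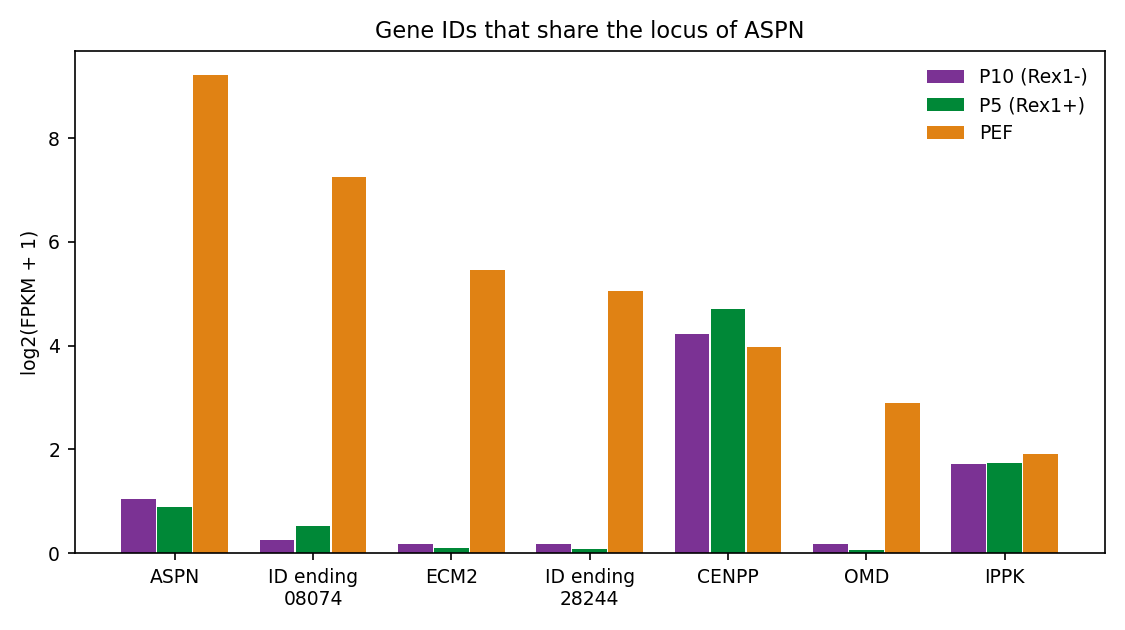
Bars give log2(FPKM + 1) in P10, P5 and PEF for the 7 gene IDs that share the ASPN locus, ordered by PEF level, with IDs that have no symbol given by their last digits. ASPN, ECM2, OMD and both IDs without a symbol were called lower in both piPSC groups than in PEF. CENPP (17.7, 25.3 and 14.7 FPKM) and IPPK were called in no comparison.

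LUM is the next listed gene after DCN, 31984 bases away. It was the lower of the pair in both piPSC groups, and in PEF the higher, at 193 FPKM against 49.98 for DCN. KERA and EPYC, next in the row, were at or near 0. PRELP lies 116973 bases after FMOD and was lower in both piPSC groups, as FMOD was, while OPTC, next to it, was near 0 in every group. As PRELP passed the filter only through PEF, it had to be called lower. Closer to FMOD, 25163 bases before it, an ID without a symbol (ENSSSCG00000028322) was at 48.1 FPKM in P10, 14.3 in P5 and 39.8 in PEF. FMO4, a flavin monooxygenase gene, was at 3.50, 1.42 and 4.16 FPKM in P10, P5 and PEF. Both were called lower than PEF in P5 but not in P10.

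Of 8 IDs within 150000 bases of BGN, 6 were compared, and 3 of these were too low in PEF to fall by the log2 difference of 1 that a call needs. Among the other 3, HAUS7, CCNQ and SLC6A8, 0 were called lower in either piPSC group. Over all compared genes 19.6% were called lower in P5 and 19.3% in P10, so with 3 genes this count is a description. PNCK, a protein kinase gene, was called higher in both, at 4.31 FPKM in P10, 2.68 in P5 and 0.0409 in PEF. ZFP92, a zinc finger gene, was called higher in P10 alone, at 2.64 in P10, 0.366 in P5 and 0.589 in PEF. PNCK, ZFP92 and BICD2 were named after their values were seen. HAUS7, a subunit of the spindle-associated augmin complex, was called higher in P5 alone, at 5.05 FPKM in P10, 10.9 in P5 and 2.23 in PEF. SLC6A8, the creatine transporter gene, was at 19.1 in P10, 20.1 in P5 and 20.7 in PEF.

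SLRP core proteins acquire their chains from glycosyltransferases and sulfotransferases. For counts against PEF in this and the later gene lists, the shares over all compared genes were 19.6% lower and 21.4% higher in P5. In P10 they were 19.3% lower and 19.1% higher. Of 23 listed genes of chondroitin and dermatan sulfate synthesis, 18 were compared. In P5 minus PEF 8 were called lower and 0 higher, with a median log2 difference of -0.50. In P10 minus PEF 7 were lower and 1 higher, with a median of -0.77. XYLT1, called lower in P5, passed the filter only through PEF, and CHST7 was too low in PEF to be called lower. Both were named after their values were seen, and these counts are descriptions. DSE, the epimerase that turns chondroitin into dermatan sulfate, was at 3.67 FPKM in P10, 3.60 in P5 and 127 in PEF. Its log2 difference, -4.80 in P5 minus PEF and -4.78 in P10 minus PEF, was larger in size than that of DCN in both. CSGALNACT2, which starts chondroitin chains, was at 7.52, 6.49 and 52.7, and the chain polymerizing factor CHPF2, at a locus shared by 2 IDs, at 5.96, 6.64 and 32.8. The higher gene in P10, named after its value was seen, was the sulfotransferase CHST15, at 14.5 in P10, 3.55 in P5 and 4.13 in PEF.

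Of the genes of keratan sulfate synthesis, sulfate activation and tyrosine sulfation, 7 of 13 were compared. Against PEF 3 were lower and 1 was higher both in P5 (median 0.01, mean -0.96) and in P10 (median -0.41). The P5 median turned to -1.15 among genes with a mean FPKM of at least 5. PAPSS2, one of the enzymes that make the sulfate donor for these chains, was at 1.71 FPKM in P10, 1.55 in P5 and 190 in PEF, a log2 difference of -6.23 in P5 minus PEF and -6.13 in P10 minus PEF. TPST1, a protein tyrosine sulfotransferase, was at 4.79, 7.12 and 17.0, and the galactosyltransferase B4GALT4 at 6.17, 5.47 and 15.0. Their loci hold 2 IDs for PAPSS2, 3 for TPST1 and 2 for B4GALT4. The higher genes, named after their values were seen, were CHST1 in P10 (1.52 FPKM, against 0.427 in P5 and 0.165 in PEF) and CHST2 in P5 (9.25 FPKM, with 3.58 in P10 and 2.74 in PEF).

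The collagens that SLRPs bind were lower too. Of 14 listed, 13 were compared. In P5 minus PEF 10 were lower and 1 higher, with a median of -5.90, and in P10 minus PEF 10 were lower and 2 higher, with a median of -6.02. COL1A2, which encodes part of type I collagen, was at 4.05 FPKM in P10, 5.83 in P5 and 1266 in PEF. COL3A1 was at 3.11, 87.9 and 1016, and COL5A2, a chain of the type V collagen that starts fibrils, at 5.49, 18.6 and 1171. The higher genes, named after their values were seen, were the cartilage collagen genes COL2A1, at 5.19 in P10, 7.18 in P5 and 0.0262 in PEF, and COL11A2, at 10.1 in P10, 0.817 in P5 and listed at 0 in PEF. COL2A1 was higher in both piPSC groups and COL11A2 was called in P10.

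Fibromodulin is known to modulate collagen cross-linking by lysyl oxidase. Of 14 compared genes of cross-linking and procollagen processing, 11 were lower in P5 and 11 in P10 than in PEF, with medians of -2.50 and -2.88. LOXL3 and ADAMTS2 passed the filter only through PEF and had to be called lower, so both counts are descriptions. LOX, the lysyl oxidase itself, was at 8.75 FPKM in P10, 8.75 in P5 and 179 in PEF. PLOD2, a collagen lysyl hydroxylase, was at 5.60, 14.8 and 117, and PCOLCE, an enhancer of procollagen cleavage, at 2.47, 2.53 and 60.6. The 1 higher gene in P10, named after its value was seen, was TLL2, a tolloid-like protease, at 2.26 in P10, 0.967 in P5 and 0.255 in PEF.

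Among proteases known to cleave SLRPs, 7 of 11 were compared and all 7 were lower in each piPSC group than in PEF, with medians of -2.77 in P5 and -3.50 in P10. The interstitial collagenase MMP1 was at 0.116 FPKM in P10, 0.178 in P5 and 87.6 in PEF. HTRA1, a secreted serine protease, was at 11.1, 3.44 and 367, and the gelatinase MMP2 at 47.0, 52.1 and 636. MMP1, ADAMTS4 and ADAMTS5 passed the filter only through PEF, so the count of 7 is a description. HTRA1, like BGN, was called higher in P10 than in P5, by 1.45.

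Of 20 growth factors and receptors that SLRPs bind, 16 were compared. In P5 minus PEF 8 were lower and 2 higher, with a median of -1.25, and in P10 minus PEF 8 were lower and 1 higher, with a median of -1.27. CCN4 and MET, lower genes named after their values were seen, passed the filter only through PEF. CCN2, a matricellular growth factor partner that decorin binds, was at 56.5 FPKM in P10, 20.6 in P5 and 1583 in PEF. TGFBR2, a TGF-beta receptor gene, was at 0.889, 4.79 and 40.5, and TGFB3, a TGF-beta ligand, at 0.285, 1.19 and 14.7. The higher genes, named after their values were seen, were the receptor genes ERBB4, at 14.2 in P10, 3.001 in P5 and 0.345 in PEF, and KDR, called in P5 at 3.80 FPKM, against 0.00401 in PEF.

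Proteoglycans of other families did not share one direction. Of 14 compared cell surface and basement membrane proteoglycan genes, 7 were lower and 4 higher in P5 than in PEF (median -0.97), and likewise 7 and 4 in P10 (median -1.02). Over all compared genes 21.4% were called higher in P5 and 19.1% in P10. SDC2, a syndecan of mesenchymal cells, was at 20.7 FPKM in P10, 16.0 in P5 and 533 in PEF, and CSPG4, a proteoglycan of pericytes, at 0.0268, 0.0413 and 15.0, so that it entered only through PEF. SPOCK3, a testican, was at 2.91, 9.24 and 43.8. The 4 higher genes, named after their values were seen, were GPC2, GPC3 and GPC6, which encode glypicans, and SPOCK2 in both piPSC groups, and GPC2 was at 15.9 in P10, 8.49 in P5 and 2.46 in PEF. SPOCK2, at 0.514 in PEF, was too low there to be called lower, and CSPG4 had to be called lower, so these counts are descriptions.

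Of the hyaluronan-binding proteoglycans and their link proteins, 4 of 8 were compared. VCAN (versican), the large proteoglycan of fibroblasts, was at 22.5 FPKM in P10, 30.3 in P5 and 222 in PEF. HAPLN1, a link protein, was at 0.109 in P10, 16.8 in P5 and 3.70 in PEF, higher than PEF in P5 and lower in P10. Of this list 1 was lower and 2 were higher in P5 (median 0.04, mean -0.21), with HAPLN1 also the cartilage proteoglycan gene ACAN, named after its value was seen, at 0.229 in P10, 1.24 in P5 and 0.108 in PEF. In P10 2 were lower and 0 higher (median -1.49). ACAN was too low in PEF to be called lower, so these counts are descriptions.

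SLRPs also mark tendon, cartilage and bone cells, so markers of those lineages were read beside them. Their summed FPKM over 11 genes with a row was 40.8 in P10, 31.3 in P5 and 226 in PEF. Without SPP1, the largest of them, it was 40.3 in P10, 30.4 in P5 and 59.1 in PEF. Of 9 compared, 4 were lower and 4 higher in P5 (median -0.72), and 4 lower and 2 higher in P10 (median 0.04, mean -1.05). Of the 9, 3 had to be called lower and 4 were too low in PEF to be called lower, so these counts are descriptions. The P10 median turned to -1.46 among genes with a mean FPKM of at least 5. Named after their values were seen, the higher genes were CNMD and COL2A1 in both groups and MATN3 and IBSP in P5, and the lower ones SPP1, MKX, RUNX2 and COMP, of which all but MKX passed the filter only through PEF. SPP1 (osteopontin) was at 0.496 in P10, 0.902 in P5 and 167 in PEF, the cartilage gene CNMD at 18.1, 12.5 and 0.239, and the tendon transcription factor MKX at 1.41, 1.44 and 32.7. The tendon marker TNMD was near 0 throughout, at 0.0537, 0 and 0.0948 FPKM in P10, P5 and PEF. Endothelial and immune markers summed to 7.65 FPKM in P10, 20.6 in P5 and 7.04 in PEF. Without PECAM1, the largest of them, the sum was 6.48 in P10, 7.79 in P5 and 4.27 in PEF. Of 5 endothelial and immune markers compared, 1 was lower and 3 higher in P5 (median 1.52), and 1 lower and 2 higher in P10 (median 0.73). Among the 5, 3 were too low in PEF to be called lower. Named after their values were seen, TEK was higher in both groups, KDR and PECAM1 in P5 and CD68 in P10, and CD14 was the lower gene. The immune marker PTPRC was listed at 0 in P10 and PEF and CSF1R at 0 in P5 and PEF, while PECAM1, an endothelial adhesion gene, was at 1.17 in P10, 12.8 in P5 and 2.78 in PEF.

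Between the piPSC groups the lists were read against the 8.48% of all compared genes called lower in P10 and the 7.57% called higher. With so few genes in each list, a gene or 2 moves these shares widely. In P10 minus P5, 1 of 18 compared chondroitin and dermatan sulfate genes was lower and 1 higher, with a median of 0.10, and 1 of 7 keratan sulfate genes was lower and 0 higher, with a median of -0.36. Of 13 collagens 2 were lower, COL3A1 at a log2 difference of -4.43 and COL5A2 at -1.59, and 2 higher, COL6A2 at 1.29 and COL11A2 at 2.61, with a list median of 0.33 and a mean of -0.07. COL6A2 and COL11A2 were named here after their values were seen. Of 14 cross-linking and processing genes 2 were lower, PLOD2 and PCOLCE2, and 0 higher. Of 16 growth factors and receptors 2 were lower, TGFBR2 and KDR, and 2 higher, CCN2 and ERBB4. The cartilage and other lineage markers had 2 lower and 1 higher of 9. Of the 4 pluripotent cell markers 3 were lower, DNMT3B, EPCAM and CDH1, and 0 higher. Of 8 fibroblast markers 2 were lower, COL3A1 and POSTN, the second named after its value was seen, and 0 higher. Of 5 endothelial and immune markers 2 were lower, KDR and PECAM1, and 1 higher, CD68. The proteases had 0 lower and 1 higher of 7, the hyaluronan-binding genes 1 lower and 0 higher of 4, and the cell surface and basement membrane proteoglycans 1 lower and 0 higher of 14.

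Finally, the genes whose pattern over the 3 groups was most like each member were found by the Euclidean distance between centred log2(FPKM + 1) values, among 6964 other genes that had a symbol and reached an FPKM of 5 in a group. FMOD and ASPN were each other's nearest gene, at a distance of 0.40. Next to FMOD came THBS2, a matrix glycoprotein (1.05 FPKM in P10, 0.322 in P5 and 365 in PEF), and ACTA2, smooth muscle actin. ACTA2 was also next to ASPN, followed by the chemokine CCL2 (1.94, 3.11 and 1061).

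BGN had other neighbours by pattern. Nearest was HTRA1, at 0.26, then CCN2, at 0.34, and COL6A2, a chain of type VI collagen, at 0.38. COL6A2 was at 23.0 FPKM in P10, 8.81 in P5 and 742 in PEF. Like BGN, the 3 genes were lower in both piPSC groups and higher in P10 than in P5, which follows from their choice by pattern. FMOD came only at place 257 of the genes ordered by likeness to BGN, and ASPN at 212.

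For DCN the nearest genes were CD151, a tetraspanin, at 0.04, MSN (moesin), a linker of membrane and actin, at 0.17, and SWAP70, at 0.25 and at a locus shared by 2 IDs. CD151 was at 6.11 FPKM in P10, 16.0 in P5 and 163 in PEF. BGN came at place 1585 by likeness to DCN, ASPN at 4569 and FMOD at 5513. With 3 group values per gene, likeness of this kind is a description of these columns.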

How the data were processed

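Per the labels' protocols, the RNeasy Mini Kit served for RNA extraction and a NEBNext Ultra kit for the libraries. Bowtie2 2.0.6, TopHat2 2.0.9 and the susScr3 build were used, per the submitters' processing notes. Per the file headers, the authors deposited FPKM in 1 column per group. The sources used here do not name the program, the annotation release or the way the 2 libraries of each group were merged. Symbols came from a table of gene IDs that matched 11804 of 25322 IDs (46.6%), and 4269 IDs shared a locus with another. Coordinates are those of the table, and whether starts count from 0 or 1 is not given.

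Limma was the plan for values per library. With 1 value per group, differences of log2(FPKM + 1) were described without a test (Python 3.11.15, pandas 2.3.3). The code of the call was checked on a copy of the PEF column with large changes put in and no noise. That check cannot show how calls behave at low FPKM or with variation between libraries. The members and 15 gene lists were chosen with earlier results of these data known. Named were the members, both SLRP lists, and of each other list up to 3 genes called in any comparison, with an FPKM of at least 5 and the largest difference in P10 minus PEF. The 3 nearest patterns per member were added. 

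Depth is unknown. Among genes with an FPKM under 0.15 in both columns, the commonest ratio gave a hint of 1.96 times the depth in P10 as in P5 (33 of 774 genes within 0.01 on the log2 scale). The corresponding values were 0.734 for P5 over PEF (16 of 589) and 1.43 for P10 over PEF (20 of 678). Tried were 10 alternatives: 2 pseudocounts, 2 filters, 4 scalings, a stricter threshold and leaving out IDs that share a locus.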

Additional observations from a re-analysis of the deposited data

How the results depend on the processing

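No paired analysis was possible because the table has 1 column per group, and for the same reason no replicate could be left out. In P5 minus PEF and P10 minus PEF all 4 members kept their direction and their call under the 10 alternatives, except that ASPN has no value without IDs sharing a locus. In P5 minus PEF their log2 differences ranged from -9.31 to -7.81 (FMOD), -9.31 to -6.69 (ASPN), -6.73 to -6.21 (BGN) and -3.52 to -2.57 (DCN). In P10 minus PEF they ranged from -8.61 to -7.52 (FMOD), -9.00 to -6.64 (ASPN), -4.86 to -4.46 (BGN) and -5.36 to -3.17 (DCN). In P10 minus P5, BGN ranged from 1.57 to 1.92 and DCN from -1.83 to -0.60. At a threshold of 2 neither BGN (1.81) nor DCN (-1.31) was called, leaving 0 members called in either direction. A pseudocount of 5 put DCN at -0.60, leaving 0 members lower. FMOD and ASPN stayed uncalled there, from 0.29 to 0.70 and from 0.05 to 0.30.

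Over all genes the counts, lower then higher, were 2744 and 2990 in P5 minus PEF, 2705 and 2678 in P10 minus PEF and 1187 and 1060 in P10 minus P5. A pseudocount of 5 gave 1826 and 1416, 1762 and 1249, and 434 and 444. A threshold of 2 gave 1096 and 946, 1086 and 945, and 203 and 171. A mean FPKM of at least 5 gave 1784 higher in P5 minus PEF, 1505 higher in P10 minus PEF, and 718 lower and 648 higher in P10 minus P5. A pseudocount of 0.1 gave 1666 higher in P10 minus P5. Leaving mitochondrial genes out of the scaling moved the median of all genes to 0.45, 0.28 and -0.18 in the 3 comparisons. Of list counts under the alternatives, 767 stayed within 1.5 times and 133 did not. Medians stayed on their side of the threshold in 402 cases, became weaker in 34 and stronger in 11. With a mean FPKM of at least 5, 3 medians turned: keratan sulfate genes to -1.15 in P5 minus PEF, tendon, cartilage and bone markers to -1.46 in P10 minus PEF and SLRPs of classes III to V to -1.46 in P10 minus P5. Fewer genes enter under that filter. Of classes III to V TSKU alone enters, so -1.46 there is the difference of a single gene. The keratan sulfate median of -1.15 is the value of TPST1, the middle one of the genes left. For the tendon, cartilage and bone markers the cause was not tested. The unknown depth limits values under an FPKM of 1 most.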
